A study of Mus musculus with 6 samples.

Results

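END_17 is the cluster that the study's cell annotation gives to endothelial cells of the adult striatum, the cells that line the blood vessels. Its members were all cells carrying that cluster name, 164 of 14373 annotated cells. Of these, 163 came from the 3-month (3m) libraries, which held 3185 annotated cells, and 1 came from P3 replicate 1, the only member among 11188 cells of the postnatal day 3 (P3) libraries. The series consists of 6 single-cell RNA-seq libraries of dissociated striatum from wild-type male C57BL/6 mice, 3 per age, and the labels name no treatment. Suspensions pooled from several mice were enriched for astrocytes with beads against ACSA2, an astrocyte surface antigen, and red blood cells were removed. Endothelial cells were therefore carried along rather than selected, and their share describes the sorted suspension and not the tissue.

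Endothelial cells of the brain form the blood-brain barrier. Tight junctions seal the gaps between them, solute carriers of their membranes let selected nutrients pass, efflux pumps return foreign compounds to the blood, and vesicle traffic across the cell is kept low. The barrier is induced by Wnt signals and is further shaped by pericytes, the mural cells that wrap capillaries, and by astrocyte endfeet. Along the vessel tree the endothelium changes gradually from arteries through capillaries to veins.

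END_17 made up 7.37% of the annotated cells in 3m replicate 1 (59 of 801 cells, 95% Wilson interval 5.75 to 9.39%). It made up 3.36% in replicate 2 (47 of 1399, 2.54 to 4.44%) and 5.79% in replicate 3 (57 of 985, 4.49 to 7.42%), on average 5.50% ± 2.02 (SD, n = 3). The intervals cover counting error only. No END_17 barcode occurred in a second library, although 28 barcode sequences were shared by annotated cells of 2 libraries. Summed over its cells the cluster held 562163, 256977 and 410974 UMIs (unique molecular identifiers, each standing for 1 counted RNA molecule) in 3m replicates 1, 2 and 3, of library totals between 5471573 and 10522151. Single cells held 1048 to 32889 UMIs, and library medians were 8307, 4258 and 5818. Those medians were above the astroglial medians of the same libraries in 3 of 3 libraries, by 2118 ± 847 UMIs (SD, n = 3, exact paired permutation p = 0.25, the smallest that 3 pairs can give). Against oligodendrocytes END_17 had the higher median in 1 of 3 libraries, with a difference of 209 ± 752 UMIs (SD, n = 3, exact paired permutation p = 1.0). The median share of mitochondrial UMIs, 5.84, 2.97 and 3.02%, lay below that of astroglia in 3 of 3 libraries by 2.80 ± 0.405 percentage points (exact paired permutation p = 0.25).

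The cluster carried its label. All 163 cells had a UMI in 3 or more of 10 pan-endothelial genes, against 7 of 3022 other annotated 3m cells. Levels are given as CPM (counts scaled to 1000000 UMIs) of the sum of a library's cells of 1 type. Cldn5, the main claudin of the barrier's tight junctions, reached 6539, 2432 and 2613 CPM in replicates 1, 2 and 3, against a mean of 0.227 CPM in astroglia and 7.18 CPM in oligodendrocytes. Replicate 1 was well above the other 2 for this gene. The 4 genes given as markers of the cluster were high in every 3m library. Ly6c1 (chr15:75044018-75048830, GRCm38, minus strand), a surface protein of the Ly6 family whose counts cannot be fully told apart from those of its near-identical neighbour copy, was at 4084, 3977 and 3207 CPM. Ly6a (chr15:74994877-74998031, minus strand), which encodes the surface antigen Sca-1, was at 3239, 2681 and 2528 CPM. Slco1a4 (chr6:141805440-141856199, minus strand), an organic anion transporter, was at 1482, 1105 and 1309 CPM, and Abcb1a (chr5:8660077-8748575, plus strand), which encodes the efflux pump P-glycoprotein, at 902, 662 and 762 CPM. Because clusters were formed from the same genes, the differences from other 3m types are a description and were not tested. All 10 pan-endothelial genes and all 4 markers were higher in every END_17 library than in any library of astroglia, oligodendrocytes, microglia or the unidentified cluster LOW_21, which 6.28% of the 9456 genes compared were.

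**Figure D1:**
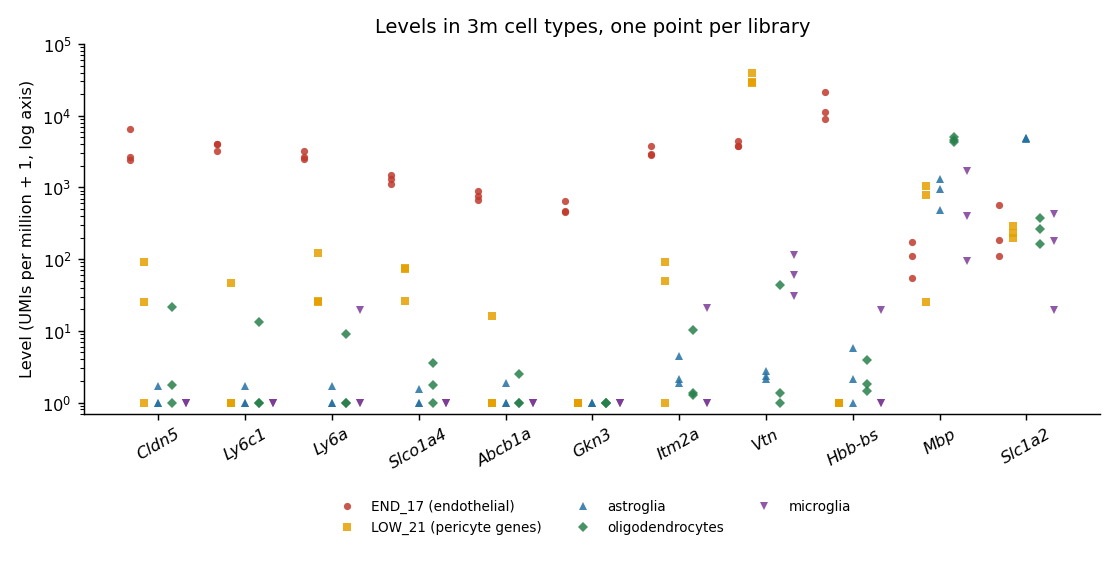
Levels of 11 genes in 5 cell types of the 3m libraries, as CPM plus 1 on a log axis, with 1 point for each library. Cldn5, the 4 marker genes, Gkn3 and Itm2a are high in END_17 alone, Hbb-bs is also high there, and Vtn lies between LOW_21 (mean 32013 CPM) and astroglia (mean 1.4 CPM).

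The 15 genes that stood farthest above all other 3m types fell into 2 sets. The first was haemoglobin: Hba-a2, Hba-a1, Hbb-bs and Hbb-bt, near-identical in pairs, led the ranking. The second was endothelial and included Ly6c1, Gkn3 (a gastrokine of arterial endothelium), Ctla2a, Cdh5 (VE-cadherin), Itm2a, Abcb1a, Cav1 (caveolin-1), Cldn5, Fn1 (fibronectin), Tinagl1 and Sox17. Itm2a was at 3764, 2806 and 2966 CPM in replicates 1, 2 and 3, and Ctla2a at 537, 323 and 523 CPM.

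Haemoglobin RNA sat in very few cells. Of 163 cells, 142 had no globin UMI, and 8 cells with globin above 10000 CPM of the cell held 99.9% of them. Globin was 4.27, 2.14 and 1.92% of END_17 UMIs in replicates 1, 2 and 3, and up to 66.2% in 1 cell. In astroglia of the same libraries it was at most 0.00116%.

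RNA of pericytes was common in the cluster. The 10 pericyte markers summed to 7605, 7413 and 7772 CPM in replicates 1, 2 and 3, against 83.0 to 115 CPM in astroglia and 41580 to 55829 CPM in LOW_21, whose leading RNA is Vtn (vitronectin). None of the 10 was at 0 in END_17. Cell by cell, 56 cells had none of these UMIs, 18 had up to 1000 CPM, and 89 (54.6%) had more, 49 of them above 10000 CPM. Only 13 cells lay between 500 and 2000 CPM, around the limit used to divide them. In astroglia 3 of 1111 cells passed 1000 CPM, and in oligodendrocytes 1 of 1731. The share was alike in replicates 1, 2 and 3, at 52.5, 53.2 and 57.9%. Cells above the limit were deeper, with a median of 7869 UMIs against 4623.

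**Figure D2:**
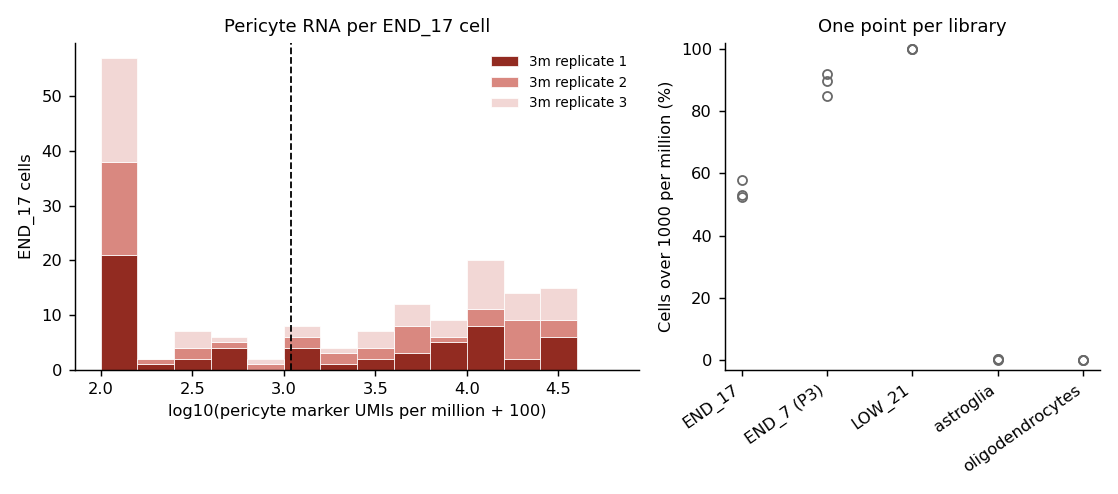
Left, END_17 cells by their pericyte marker CPM, on a log10 axis after adding 100, stacked by library, with a dashed line at 1000 CPM. Right, the share of cells above that line in each library of 5 cell groups. END_17 cells form a column without pericyte UMIs and a broad group above the line, and the share lies near 55% in all 3 libraries.

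The cells with and without pericyte RNA differed in other genes as well, given here without a test since both come from the same libraries. Gkn3 was at 785, 818 and 819 CPM in replicates 1, 2 and 3 of the cells at or below the limit and at 584, 249 and 225 CPM above it. Fos (an immediate early transcription factor) was at 623, 1025 and 375 CPM below and 228, 118 and 98.6 CPM above. Both were lower in the cells with pericyte RNA in 3 of 3 libraries. Car4 (carbonic anhydrase 4), by contrast, was at 770, 559 and 578 CPM below and 1078, 1372 and 1389 CPM above. Some genes outside the 10 markers were nearly confined to the upper cells. Ifitm1 had a mean of 4.23 CPM below and 430 CPM above, Nid1 (nidogen-1) 7.26 and 107, and Lrp1 had 0 UMIs below and 74 above. Vtn, at means of 33.4 CPM below and 6342 CPM above, is among the 10 markers that divide the cells, so its difference follows from the split. Over the 163 cells the genes most like Vtn were Ndufa4l2 (r = 0.92) and Higd1b (r = 0.91), both also among the 10 markers. Those most opposed were Ly6c1 (r = -0.40) and Cldn5 (r = -0.34). These correlations are across cells that share libraries and differ in depth.

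RNA of other glia was low. Astrocyte markers summed to 448, 1802 and 774 CPM in replicates 1, 2 and 3, and oligodendrocyte markers to 834, 1580 and 801 CPM, both highest in replicate 2. Smooth muscle markers reached 1590, 751 and 788 CPM. Microglial markers stayed between 40.9 and 60.8 CPM, with Csf1r at 0, and all 5 ependymal and choroid markers were at 0. Fibroblast markers summed to 21.9 to 80.0 CPM, precursor markers to 56.9 to 75.4 CPM and neuron markers to 127 to 288 CPM, the last list sharing Stmn2 with the arterial genes.

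To ask how the adult cells differ from those of the newborn striatum, the UMI sums of END_17 in the 3m libraries were compared with those of END_7, the main P3 endothelial cluster (605 cells, 7029198, 4200780 and 7386516 UMIs). END_7 holds no 3m cell and END_17 only the 1 P3 cell, so age and cluster cannot be told apart. The P3 sums were also deeper, which limits what can be seen of low genes at 3m. By edgeR's quasi-likelihood test with Benjamini-Hochberg adjustment, 2289 of 10271 genes (22.3%) were called, meaning a padj no higher than 0.05 and a log2(fold change) of 1 or more in size. Of all genes tested, 11.6% (1192) were higher at 3m and 10.7% (1097) were lower. With all cells of every endothelial cluster at each age in place of these 2 clusters, 1146 genes were higher and 1093 lower. Pericyte markers summed to 2861 to 4500 CPM in END_7, where 534 of 605 cells passed 1000 CPM. The comparison was therefore repeated on cells at or below that limit at both ages (74 END_17 and 71 END_7 cells). In that comparison 16.3% of 3213 genes tested were higher and 10.7% lower. The list counts below are to be read beside these shares of all genes, each in its own comparison. Without the cells with globin above 10000 CPM, 1186 genes were higher and 1082 lower.

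All 4 marker genes rose with age. Ly6a went from 132, 81.4 and 109 CPM in P3 replicates 1, 2 and 3 to the 3m values above, a log2(fold change) of 4.62 ± 0.25 (SE, padj = 6.5e-11). Ly6c1 rose by 3.61 ± 0.24 (padj = 8.65e-10) from 299, 290 and 270 CPM, Slco1a4 by 3.33 ± 0.22 (padj = 9.22e-10) from 113, 103 and 146 CPM, and Abcb1a by 2.73 ± 0.19 (padj = 2.24e-09) from 118, 96.4 and 115 CPM. They were therefore detected in the P3 endothelium, at levels that every 3m library exceeded, as 23.9% of all genes tested did. They were chosen as markers of this cluster, so their direction is no independent result. Of the 10 pan-endothelial genes 3 were higher and none lower. Tek, the angiopoietin receptor, rose by 1.45 ± 0.19 (padj = 6.07e-06) from 95.7, 82.1 and 63.1 to 263, 202 and 231 CPM. Flt1, a VEGF receptor, rose by 1.69 ± 0.22 (padj = 6.19e-06) and the sialomucin Emcn by 1.67 ± 0.19 (padj = 1.13e-06). Cdh5, Pecam1, Tie1, Cldn5, Esam, Egfl7 and Kdr were not called.

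**Figure D3:**
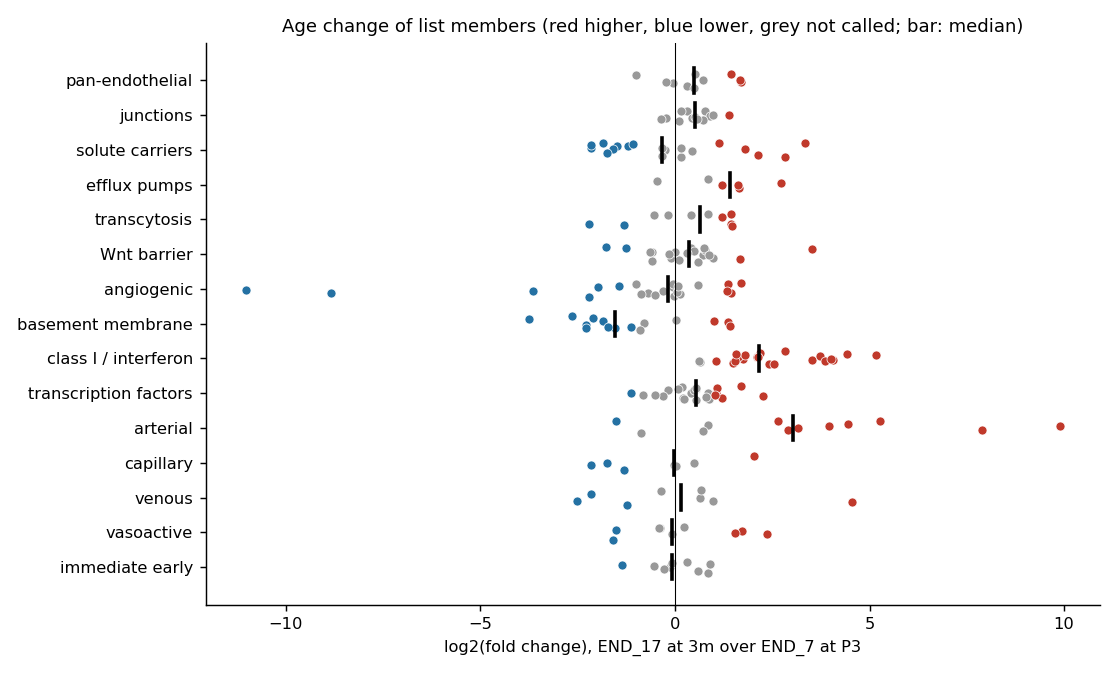
The log2(fold change) of END_17 at 3m over END_7 at P3 for the tested members of 15 gene lists, 1 point per gene, coloured by the call, with a bar at each list's median. The class I and interferon list lies above 0 for all 22 tested members, most arterial genes lie far to the right, and most basement membrane genes lie to the left.

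Few junction genes were called. Of 13 tested, 1 was higher, none was lower, and the median log2(fold change) was 0.52, beside -0.02 over all genes tested. The one called was Ocln (occludin), at 190, 179 and 185 CPM in 3m replicates 1, 2 and 3 and 65.2, 69.3 and 61.6 CPM at P3 (1.4 ± 0.17, padj = 3.72e-06). Cldn5 was at 3489, 2806 and 2388 CPM in the P3 replicates and overlapped with the 3m values (0.32 ± 0.32, padj = 0.474). In the cells with little pericyte RNA 5 of 12 tested junction genes were higher (41.7%, beside 16.3% of all genes) and none lower.

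Solute carriers moved in both directions: of 19 tested, 5 were higher (26.3%, beside 11.6% of all genes tested) and 8 lower (42.1%, beside 10.7%). The amino acid carriers fell. Slc7a5, which with Slc3a2 forms the large neutral amino acid transporter LAT1, was at 302, 187 and 299 CPM at 3m and 840, 838 and 1036 CPM at P3 (-1.86 ± 0.22, padj = 2.45e-06), and Slc3a2 fell by 1.5. Slc7a1, a cationic amino acid carrier, fell by 1.59, Slc38a3 by 1.22 and Slc38a5 by 2.15. The monocarboxylate carrier Slc16a1 (MCT1) was at 196, 187 and 163 CPM at 3m and 774, 461 and 482 CPM at P3 (-1.74 ± 0.21, padj = 3.46e-06). Mfsd2a, which transports lysophospholipids and restrains transcytosis, was at 173, 101 and 77.9 CPM at 3m and 784, 374 and 354 CPM at P3 (-2.15 ± 0.30, padj = 1.4e-05). The iron exporter Slc40a1 fell by 1.07, but was not called without scaling of libraries beyond their totals (-0.97), with little pericyte RNA (-0.71) or without cells with markers of another class (-0.59, padj = 0.0849). The carriers that rose serve other solutes. Slc6a6, the taurine transporter, was at 1185, 1027 and 1041 CPM at 3m and 192, 117 and 122 CPM at P3 (2.83 ± 0.21, padj = 5.22e-09). Slc2a1, the glucose transporter GLUT1, was at 1661, 693 and 859 CPM at 3m and 692, 387 and 303 CPM at P3 (1.14 ± 0.29, padj = 0.00533), and its lowest 3m library was only just above its highest P3 library. Without 3m replicate 1 the Slc2a1 change was 0.64 (padj = 0.0892), and without P3 replicate 3 it was 0.95, neither of them a call. The thiamine transporter Slc19a3 rose by 1.81 and Slco1a4 as given above, the latter chosen as a marker of the cluster. In the cells with little pericyte RNA 4 of 16 tested carriers were higher and 7 lower.

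The efflux pumps that were called all rose. Of 6 tested, 4 were higher (66.7%, beside 11.6% of all genes tested) and none lower, with a median log2(fold change) of 1.41. Among the 4 was Abcb1a, chosen as a marker of the cluster, so its direction is no independent result. Besides Abcb1a, Abcg2 (the breast cancer resistance protein) was at 646, 545 and 769 CPM at 3m and 219, 174 and 194 CPM at P3 (1.65 ± 0.19, padj = 1.54e-06). Abcc4 was at 90.7, 66.2 and 105 CPM at 3m and 34.9, 23.1 and 24.0 CPM at P3 (1.61 ± 0.23, padj = 1.9e-05). Abcc5 was called as well (1.21 ± 0.38, padj = 0.0202), but at 28.5, 7.78 and 26.8 CPM its libraries overlapped with P3, and DESeq2 did not call it. Leaving out 3m replicate 1 (0.9), its replicate 3 (1.03) or the P3 library of that number (1.06) also ended the call of Abcc5. Neither Abcc1 nor Abcc6 passed the test, and Abcb1b was too low to be tested.

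Of 10 transcytosis genes tested, 4 were higher and 2 lower. Receptors that carry proteins into the brain fell: Tfrc, the transferrin receptor, was at 219, 85.6 and 173 CPM at 3m and 488, 320 and 343 CPM at P3 (-1.31 ± 0.24, padj = 0.000367, but -0.89 and padj = 0.0785 in the cells with little pericyte RNA), and the reelin and apolipoprotein E receptor Lrp8 fell by 2.20 ± 0.26 (padj = 2.45e-06). Caveolar genes rose. Cav1 was at 313, 331 and 348 CPM at 3m and 112, 109 and 123 CPM at P3 (1.43 ± 0.17, padj = 2.93e-06), Cav2 rose by 1.47 and Cavin2 by 1.44. Cavin1, at 0.85 ± 0.19, stayed under the fold threshold. Igf1r rose by 1.20 ± 0.20 (padj = 9.58e-05). Plvap, which forms the diaphragms of leaky vessels, had 0 UMIs in END_17 and at most 2.57 CPM in END_7.

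The Wnt genes of the barrier were near the background, with 2 of 20 tested higher and 2 lower. Reck, a co-receptor for Wnt7 ligands, was at 76.5, 46.7 and 75.4 CPM at 3m and 5.69, 5 and 5.82 CPM at P3 (3.52 ± 0.27, padj = 8.14e-09). Lef1, the nuclear partner of β-catenin, was at 274, 397 and 328 CPM at 3m and 96.3, 96.2 and 96.5 CPM at P3 (1.67 ± 0.18, padj = 7.71e-07). The Wnt target Apcdd1 fell by 1.76 ± 0.23 (padj = 7.28e-06), and Ppard fell by 1.25 ± 0.30 (padj = 0.0032). The receptor Fzd4, the co-receptor Adgra2 and the targets Axin2 and Notum did not pass. The count depended on the cells taken: among those with little pericyte RNA 9 of 16 tested were higher and 1 lower, against 16.3% higher over all genes. The 9 included Lef1 (1.97 ± 0.26), Reck (3.48 ± 0.42), Ctnnb1 (1.28 ± 0.24), Fzd6 (1.63 ± 0.30), Axin2 (1.44 ± 0.34) and Sox17 (1.20 ± 0.32).

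Of 22 tested angiogenic genes 4 were higher (18.2%, beside 11.6% of all genes tested) and 6 lower (27.3%, beside 10.7%) at 3m. In the cells with little pericyte RNA 4 of 14 were higher and 2 lower, and the median log2(fold change) was 0.43 in place of -0.18. Apln (chrX:48025146-48034853, minus strand), the ligand apelin made by tip cells, had 1 UMI in all END_17 cells, in 3m replicate 1, and 333, 367 and 383 CPM in P3 replicates 1, 2 and 3. The P3 level was 444 times the 3m level, with a 95% counting interval of 79.6 to 17500. Its receptor gene Aplnr had 0 UMIs at 3m and 104, 60.7 and 70.1 CPM at P3, at least 33.2-fold lower at 3m by a floor of 3 UMIs over the group. Esm1, also of tip cells, had 0 UMIs at 3m and was too low at P3 to be tested. Angpt2 (angiopoietin-2) was at 7.12, 11.7 and 14.6 CPM at 3m and 44.5, 42.8 and 51.0 CPM at P3 (-2.22 ± 0.33, padj = 4.19e-05). Cxcr4 fell by 3.64 ± 0.50 (padj = 1.24e-05), Adm (adrenomedullin) by 1.99 ± 0.33 (padj = 0.000119) and the semaphorin receptor Plxnd1 by 1.44 ± 0.21 (padj = 2.41e-05). Plxnd1 was not called in the cells with little pericyte RNA (-0.9). The 4 higher genes were Flt1 and Tek as above, the receptor gene Acvrl1 (ALK1) by 1.37 ± 0.19 (padj = 1.46e-05) and the Notch ligand Jag2 by 1.34 ± 0.21 (padj = 5.45e-05). The other receptors Tie1, Eng, Robo4, Notch1, Notch4, Flt4, Nrp1, Nrp2 and Unc5b and the ligands Dll4 and Pgf were not called. Kdr, the main VEGF receptor, was at 349, 222 and 255 CPM at 3m and 682, 443 and 435 CPM at P3 (-0.99 ± 0.21, padj = 0.00133), just short of the fold threshold.

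Of 9 proliferation genes tested, 7 were lower in the adult cells and none higher. Pcna, which acts in DNA replication and repair, was the one still well detected, at 44.5, 54.5 and 41.4 CPM at 3m and 94.9, 69.7 and 78.7 CPM at P3 (-0.92 ± 0.22, padj = 0.00289, under the fold threshold). Mcm2, with 11 UMIs at 3m, was not called either. Mki67, Cdk1, Ccnb1, Ccna2 and Birc5 had 0 UMIs in END_17. By the floor of 3 UMIs over the group Mki67 (96.7, 44.5 and 60.5 CPM at P3) was at least 28.9-fold lower at 3m, and Cdk1 (135, 110 and 162 CPM at P3) at least 57.5-fold lower. Top2a and Ube2c each had 1 UMI. Of the imprinted and early growth genes, 4 of 7 tested were lower and 1 higher. Mest had 0 UMIs at 3m and 76.4, 121 and 136 CPM at P3, at least 45.2-fold lower. Igf2 fell by 2.35 ± 0.25 (padj = 6.31e-07). Of its END_17 UMIs, 2 lay in the cells with little pericyte RNA, where it was not tested, and 52 in the others. Grb10 fell by 1.60 ± 0.26 (padj = 8.52e-05). Cdkn1c, an inhibitor of the cell cycle, went the other way, at 269, 284 and 346 CPM at 3m and 77.1, 95.2 and 75.3 CPM at P3 (1.76 ± 0.19, padj = 6.08e-07).

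Matrix genes fell, with 9 of 15 basement membrane genes lower and 3 higher and a median log2(fold change) of -1.55. Col4a1, a chain of collagen IV, was at 324, 292 and 324 CPM at 3m and 1151, 952 and 1051 CPM at P3 (-1.84 ± 0.20, padj = 5.66e-07), and Col4a2 fell by 2.28. Laminin chains moved in both directions. Lamb1 was at 14.2, 7.78 and 7.30 CPM at 3m and 144, 134 and 115 CPM at P3 (-3.74 ± 0.29, padj = 8.43e-09), and Lama4 fell by 2.10. Lamb2 was at 192, 117 and 163 CPM at 3m and 53.2, 61.9 and 54.2 CPM at P3 (1.41 ± 0.20, padj = 1.64e-05), and Lama5 rose by 1.36 ± 0.28 (padj = 0.00101). Nid1, Nid2, Hspg2 (perlecan), Agrn (agrin) and Sparc fell as well. In the cells with little pericyte RNA 5 of 12 tested were lower and 2 higher, and Nid1, whose 3m reads came mostly from cells with pericyte RNA, fell by 4.33 ± 0.52 there. Col4a1 (-0.86) and Agrn (-0.61) were not called in those cells. Lamb1 had 0 UMIs in the END_17 cells with little pericyte RNA and 13 in the others. Lamb1 and Lama5 were not tested in the cells with little pericyte RNA, where Lama4 fell by 1.98 and Lamb2 rose by 1.57.

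Genes of class I antigen presentation and interferon-responsive genes rose together. Class I molecules display peptides to T cells, and many of their genes respond to interferon. Of 22 tested, 20 were higher at 3m and none lower, with a median log2(fold change) of 2.16, while 11.6% of all genes tested were higher. H2-K1 (chr17:33996017-34000347, minus strand), a class I heavy chain, was at 802, 304 and 367 CPM in 3m replicates 1, 2 and 3 and 39.3, 22.6 and 22.3 CPM at P3 (4.06 ± 0.30, padj = 5.53e-09). H2-T23 was at 286, 292 and 367 CPM at 3m and 22.3, 19.5 and 24.4 CPM at P3 (3.73 ± 0.19, padj = 4.52e-11). B2m, the class I light chain, was at 1057, 662 and 625 CPM at 3m and 256, 190 and 206 CPM at P3 (1.76 ± 0.21, padj = 2.68e-06). Replicate 1 had the highest H2-K1 and B2m levels at both ages, and the ages did not overlap. Class I genes resemble each other in sequence, so reads may be shared among them.

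The steps before display moved with them. Psmb8, a subunit of the immunoproteasome, which cuts proteins into peptides, was at 219, 210 and 251 CPM at 3m and 12.7, 15.2 and 16.0 CPM at P3 (3.86 ± 0.20, padj = 4.52e-11), and Psmb9 rose by 4.01 ± 0.24 (padj = 2.76e-10). The peptide transporter subunits Tap1 and Tap2 rose by 1.63 and 2.19, and Tapbp (tapasin) by 1.81, although Tap1 was not called without 3m replicate 1 (1.07, padj = 0.175). Of the interferon-responsive genes, Ifit3 (chr19:34583531-34588731, plus strand) was at 87.2, 105 and 94.9 CPM at 3m and 2.42, 1.67 and 2.98 CPM at P3 (5.16 ± 0.28, padj = 5.72e-11). Ifit1 (chr19:34640871-34650009, plus strand) was at 105, 125 and 99.8 CPM at 3m and 3.84, 2.86 and 6.77 CPM at P3 (4.42 ± 0.28, padj = 6.43e-10). Isg15 was at 299, 502 and 394 CPM at 3m and 80.0, 133 and 157 CPM at P3 (1.56 ± 0.25, padj = 8.21e-05). Ifitm3, which blocks virus entry, rose by 2.10 ± 0.21, Ly6e by 2.14 ± 0.20, Ifi27 by 2.83 ± 0.17 and the transcription factors Irf1 and Irf7 by 2.55 and 1.5. The 2 not called were Bst2 (0.64 ± 0.17) and Ifitm1 (0.63 ± 0.19), and Nlrc5 was too low to be tested. In the cells with little pericyte RNA 16 of 17 tested were higher and none lower. Microglia of the 3m libraries had means of 504 CPM for H2-D1 and 1326 CPM for B2m, and microglial markers summed to 40.9 to 60.8 CPM in END_17. Any part of microglial RNA in the class I levels was not tested.

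The promoters of these genes are shown because the interferon-stimulated response element, the site of interferon-activated factors, has a fixed core. It was searched as TTTC, any 2 bases and TTTC again, or on the other strand GAAA, any 2 bases and GAAA, from 250 bases before to 50 after each start. Of the 18 listed genes with a RefSeq promoter (build GRCm38.p6), 8 (44.4%) held it, and so did 7 of the 16 that were called higher, against 3.44% of all 32851 promoters. The list was picked for interferon response, so a high share follows from the choice. Those of 5 genes are printed up to their starts or to 50 bases around the matches, 5′ to 3′ on the gene's strand, with the matching letters in capitals.
Ifit3 (chr19:34583323-34583466, plus strand): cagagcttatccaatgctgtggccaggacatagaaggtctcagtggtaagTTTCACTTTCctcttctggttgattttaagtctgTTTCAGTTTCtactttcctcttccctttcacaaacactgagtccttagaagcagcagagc
Ifit1 (chr19:34640735-34640863, plus strand): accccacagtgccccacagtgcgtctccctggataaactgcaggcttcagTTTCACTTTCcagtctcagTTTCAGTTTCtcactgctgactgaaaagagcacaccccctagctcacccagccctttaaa
Isg15 (chr4:156200825-156200946, minus strand): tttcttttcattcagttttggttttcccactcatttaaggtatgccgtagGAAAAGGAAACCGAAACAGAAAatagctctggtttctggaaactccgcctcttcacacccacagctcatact
B2m (chr2:122147498-122147607, plus strand): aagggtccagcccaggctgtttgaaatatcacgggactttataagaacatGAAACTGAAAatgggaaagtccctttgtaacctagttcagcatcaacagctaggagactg
H2-T23 (chr17:36032766-36032875, minus strand): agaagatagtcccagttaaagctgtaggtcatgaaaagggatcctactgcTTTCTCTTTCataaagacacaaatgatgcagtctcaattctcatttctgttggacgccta
Ifit3 and Ifit1, which had the largest log2(fold change) of the list, each held 2 separate matches before the start, Isg15 held 3 that overlap, and B2m and H2-T23 held 1 each. Bst2, which was not called, also held 2. A match is a run of letters and says nothing about binding in these cells.

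Of 24 transcription factors of endothelial cells 6 were higher and 1 lower. Gata2 was at 119, 101 and 73.0 CPM at 3m and 22.2, 13.8 and 20.7 CPM at P3 (2.27 ± 0.23, padj = 4.05e-07). Epas1 (HIF-2α) was at 1130, 809 and 798 CPM at 3m and 312, 289 and 194 CPM at P3 (1.69 ± 0.21, padj = 4.83e-06). Ebf1, Klf4, Id1 and Id3 rose by 1.04 to 1.20, close to the fold threshold, and each lost its call when 1 of the 3m replicates was left out (Id1 0.65 and Ebf1 0.83 without replicate 1, Klf4 0.72 and Id3 0.93 without replicate 2). Ets1 fell by 1.13 ± 0.18 (padj = 7.89e-05). In the cells with little pericyte RNA 10 of 17 tested factors were higher and none lower, and Ets1 was at -0.97, short of the fold threshold. The ETS factors Erg and Fli1, which maintain endothelial identity, and the flow-responsive Klf2 did not pass (0.19 ± 0.19, -0.18 ± 0.21 and 0.07 ± 0.28).

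Genes that act on vessel tone, clotting and leukocytes changed gene by gene. Edn1 (endothelin-1, a constrictor) was at 623, 549 and 460 CPM at 3m and 142, 156 and 164 CPM at P3 (1.72 ± 0.18, padj = 6.33e-07), Thbd (thrombomodulin, an anticoagulant) rose by 2.37 ± 0.21 and Entpd1 (which breaks down extracellular ATP) by 1.55 ± 0.22. Tfpi, an inhibitor of the clotting cascade, fell by 1.58 ± 0.23 and the prostacyclin synthase Ptgis by 1.51 ± 0.40. In all 3 of 9 tested were higher (33.3%, beside 11.6% of all genes tested) and 2 lower (22.2%, beside 10.7%). Nos3 (endothelial nitric oxide synthase) did not pass. Of 6 leukocyte adhesion genes 2 were higher (33.3%) and 1 lower (16.7%), beside the same shares of all genes. Vcam1 was at 183, 105 and 141 CPM at 3m and 4.98, 6.43 and 6.23 CPM at P3 (4.55 ± 0.24, padj = 5.72e-11), Podxl rose by 2.12 ± 0.17 and Icam1 fell by 1.24 ± 0.34 (padj = 0.0086). Without 3m replicate 3 the Icam1 change had padj = 0.0529. Vcam1 was also a gene of 3m astroglia, with a UMI in 564 of 1111 cells, against 38 of 163 END_17 cells. The selectins Sele and Selp had 0 UMIs at both ages.

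Most arterial genes rose. Of 12 tested, 8 were higher and 1 lower, with a median log2(fold change) of 3.03. Gkn3 (chr6:87383256-87388935, minus strand) was at 655, 463 and 453 CPM in 3m replicates 1, 2 and 3, and at 0.285, 0.476 and 0.677 CPM in P3 replicates 1, 2 and 3, with 9 UMIs in all (9.89 ± 0.31, padj = 8.92e-14). Alpl, tissue-nonspecific alkaline phosphatase, was at 183, 148 and 185 CPM at 3m and at most 0.996 CPM at P3 (7.90 ± 0.33, padj = 2.1e-12). The kinase Bmx was at 74.7, 54.5 and 77.9 CPM at 3m and at most 2.14 CPM at P3 (5.27 ± 0.34, padj = 6.27e-10). Stmn2 rose by 4.45 ± 0.38, Sema3g by 3.15 ± 0.28, Vegfc by 2.64 ± 0.30 and the calcification inhibitor Mgp by 2.91 ± 0.25. Clu, also on the list, was at 101, 514 and 148 CPM, and its mean was 8450 CPM in astroglia, whose markers were highest in the same replicate 2. Any part of astroglial RNA in the Clu level was not tested. The gap junction gene Gja4 fell by 1.51 ± 0.22, and Hey1, Efnb2 and Fbln5 were not called. Gja4 had 14 UMIs in the END_17 cells with little pericyte RNA, where it was not tested, and 86 in the others. Of the capillary list 1 of 7 was higher and 3 lower, and of the venous list 1 of 8 was higher and 3 lower. Those higher were 14.3 and 12.5% and those lower 42.9 and 37.5%, beside 11.6 and 10.7% of all genes tested. Cxcl12, a chemokine, was at 1738, 2257 and 2896 CPM at 3m and 355, 575 and 634 CPM at P3 (2.03 ± 0.27, padj = 1.02e-05). Tmsb10, a thymosin that binds actin, was at 1101, 2350 and 2117 CPM at 3m and 5382, 12609 and 11670 CPM at P3 (-2.53 ± 0.37, padj = 3.22e-05). In sums of cells a change in the mix of vessel segments and a change within each cell cannot be told apart.

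Single cells were therefore compared for genes of different segments, each cell being thinned at random to 2000 UMIs, which left 150 of 163 cells. Gkn3 was found in 38 of them, 16 of 56, 10 of 42 and 12 of 52 in replicates 1, 2 and 3. Other arterial genes were found more often in those 38 than in the other 112 cells: Stmn2 in 18 against 7, Alpl in 17 against 15, Vegfc in 11 against 4 and Bmx in 8 against 5. Some genes of the capillary and venous lists were found less often: Slc38a5 in 1 of 38 against 30 of 112 cells, Tmsb10 in 11 against 91 and Car4 in 16 against 82. Others were not. Vcam1 and Vwf, from the venous list, were found more often with Gkn3, in 10 of 38 against 11 of 112 cells and in 12 against 18. Mfsd2a (8 against 25 cells) and Slc16a1 (9 against 30) had like shares in both. A UMI in 3 or more of the 6 genes Gkn3, Bmx, Alpl, Stmn2, Vegfc and Sema3g was seen in 18 cells, 8, 6 and 4 by replicate. None of those 18 held Slc38a5 (a count of 0 allows up to 16.7%), against 27 of the 82 cells with none of the 6. Without thinning, 47 of 163 cells met this definition and 7 of them held Slc38a5, and thinned to 1000 UMIs it was 8 cells and 0. Gkn3, Bmx, Sema3g, Slc38a5 and Car4 were found in 0 of 1111 astroglial cells (a count of 0 limits the share of cells with a UMI to 0.27%, and says nothing of cells that express the gene below detection), at a median of 3632 UMIs against 5934 in END_17. Cells of 1 library are not replicates, and these genes took part in the clustering, so the counts are a description.

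**Figure D4:**
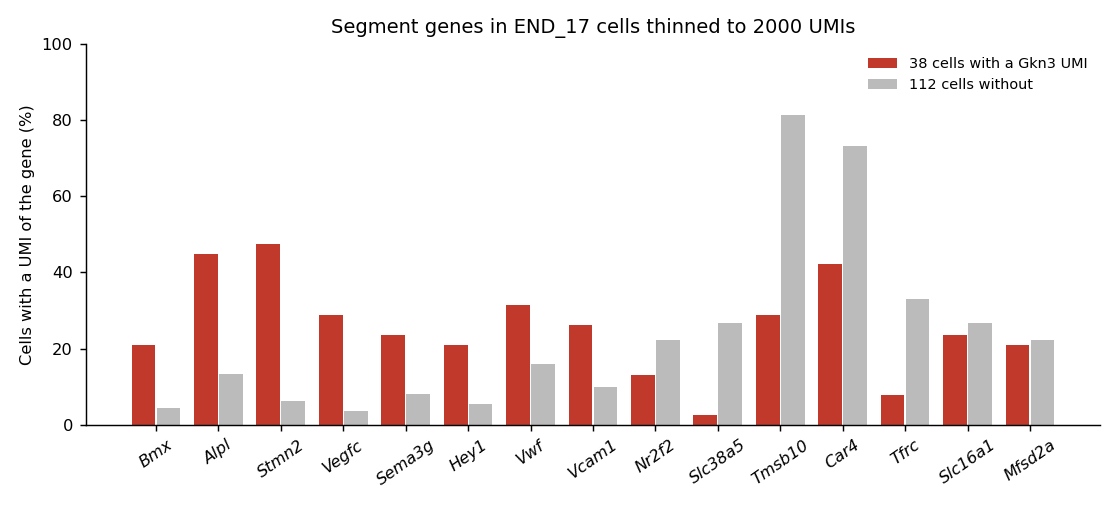
Share of END_17 cells with a UMI of each gene, after thinning to 2000 UMIs per cell, among the 38 cells with a Gkn3 UMI (red) and the 112 without (grey). The 6 arterial genes at the left are found more often in cells with Gkn3, and Slc38a5, Tmsb10, Car4 and Tfrc more often in the others.

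Across all 163 cells and 5617 genes found in at least 25 cells, the same order appeared. The genes most like Gkn3 were Egfl8 (r = 0.73), Stmn2 (0.66), Bmx (0.65), Hey1 (0.58) and Vegfc (0.57), and those most opposed were Mt1 (r = -0.56), Car4 (-0.53) and Tmsb10 (-0.46). The genes most like Slc38a5 were Tmsb10 (r = 0.52), Car4 (0.45) and Tgm2 (0.40). These r values are over cells that share libraries and differ in depth.

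The 10 largest rises among called genes with no overlap between ages and at least 50 CPM were led by 2 genes with no UMI in END_7. Fmo2, a flavin monooxygenase, was at 87.2, 58.4 and 109 CPM at 3m, at least 550-fold higher by the floor of 3 UMIs. Xdh, xanthine dehydrogenase, was at 64.0, 85.6 and 70.6 CPM, at least 439-fold higher. The others included Gkn3, Mbp, Alpl, Ndrg1, Ntn4 (netrin-4), Degs2 and Paqr5. Degs2, a desaturase and hydroxylase of sphingolipids, was at 213, 210 and 255 CPM at 3m and at most 1.22 CPM at P3, and Paqr5, a membrane progesterone receptor, at 240, 167 and 178 CPM and at most 1.90 CPM. Neither was above 0.425 CPM on average in 3m astroglia or oligodendrocytes. Mbp encodes a myelin protein. Its END_17 levels (109, 171 and 53.5 CPM) lay far below the oligodendrocyte mean of 4661 CPM and were highest in replicate 2. Ndrg1, at 438, 187 and 258 CPM and highest in replicate 1, is also a gene of oligodendrocytes (mean 571 CPM). Any part of oligodendrocyte RNA in the levels of Mbp and Ndrg1 was not tested. The 10 largest falls all had 0 UMIs in END_17. These were Hist1h1b (at least 115-fold lower), Pclaf, Prnd (at least 58.6-fold lower), Cdk1, Tubb6, Mest, Birc5, Aplnr, Mki67 and Cdca8. Prnd encodes doppel, a prion-like protein of growing vessels, and was at 169, 126 and 128 CPM at P3, and most of the others act in division.

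To ask which age changes were not shared by another cell type of the same preparations, the endothelial change was set against that of astroglia from the same libraries by an interaction term. Of 6674 genes with at least 20 CPM in astroglia at 1 age or both, 17.9% differed, 7.99% towards the endothelium and 9.89% away from it. Immediate early genes stood out. All 8 with this level differed towards the endothelium, with a median log2 difference of 5.42. Fos was at 366, 459 and 204 CPM in END_17 and 348, 261 and 428 CPM in END_7 (-0.13 ± 0.24, padj = 0.723). In astroglia it was at 5.18, 14.6 and 8.15 CPM at 3m and 1825, 1535 and 2226 CPM at P3. The difference of the 2 changes was 7.20 ± 0.30 (padj = 1.41e-15). Junb differed by 4.67 ± 0.29 and Egr1 by 6.16 ± 0.57, and for both the endothelial levels overlapped between ages while the astroglial levels fell. In the endothelium alone 1 of 9 was called, Ier2, which fell by 1.36 ± 0.27 (padj = 0.000598). This too depended on the cells taken: with little pericyte RNA 5 of 8 tested were higher at 3m, Fos by 1.15 ± 0.35, Fosb by 3.23 ± 0.42, Jun by 1.24 ± 0.24, Nr4a1 by 1.63 ± 0.44 and Btg2 by 1.54 ± 0.32, and Ier2 was lower (-1.14 ± 0.35). Microglia of the 3m libraries also held Fos, at a mean of 2133 CPM.

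**Figure D5:**
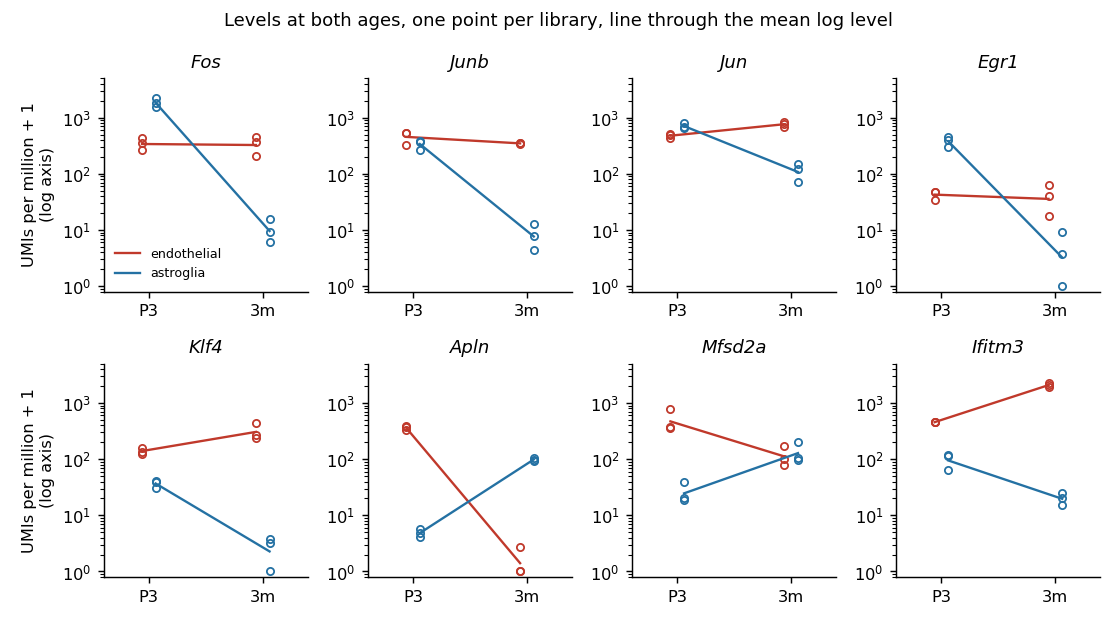
Levels of 8 genes in endothelial cells (red, END_7 at P3 and END_17 at 3m) and astroglia (blue) at both ages, as CPM plus 1 on a log axis, with 1 point per library and a line through the mean log levels. The 4 immediate early genes of the top row fall in astroglia, while Apln and Mfsd2a fall in endothelial cells and rise in astroglia.

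Several listed genes were called in opposite directions in the 2 cell types. Apln fell in the endothelium as given above, and in astroglia it rose from 3.77, 3.07 and 4.82 CPM at P3 to 95.9, 92.2 and 106 CPM at 3m (difference -13.82 ± 0.37, padj = 1.34e-19). Mfsd2a rose in astroglia from 39.0, 17.7 and 19 CPM to 204, 96.0 and 105 CPM (difference -4.91 ± 0.20, padj = 1.41e-15). Slc16a1, Tfrc and Slc38a3, which fell in the endothelium, likewise rose in astroglia, by 1.42, 1.70 and 1.15, with differences of -3.26, -3.11 and -2.44. Ifitm3 went the other way, from 62.0, 112 and 119 CPM to 19, 23.9 and 14.3 CPM in astroglia while it rose in the endothelium (difference 4.09 ± 0.29, padj = 4.01e-11). Of the 9 class I and interferon genes with enough astroglial UMIs 5 differed towards the endothelium and none away. Of 15 glycolytic genes 8 differed away from the endothelium and none towards it, and in the endothelium itself 1 was higher (Aldoc, a gene of astrocytes with a mean of 4788 CPM there) and 1 lower (Gapdh, -1.30 ± 0.27, padj = 0.00112). Without scaling beyond totals the median of all interaction terms was 0.38 and 76.0% of calls were towards the endothelium, against 49.9% with scaling. The median of 5.42 for immediate early genes and the values of Apln, Mfsd2a and Ifitm3 are well outside that shift.

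RNA classes that report on the state of the cells were compared as well. Of 13 mitochondrially encoded genes 10 were higher at 3m (76.9%, beside 11.6% of all genes tested) and none lower (median 1.43). They made up 59805, 32497 and 32708 CPM of the sums at 3m and 12173 to 21714 CPM at P3. Of 81 cytosolic ribosomal protein genes 14 were lower (17.3%, beside 10.7% of all genes tested) and none higher (median -0.71). Without scaling beyond totals 10 of them were lower (12.3%, beside 9.0%). Counts of these genes may be shared with near-identical copies. The part of these classes in the changes above was not tested.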

How the data were processed

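The authors aligned the reads with Cell Ranger to mm10, kept barcodes with more than 500 genes and less than 10% mitochondrial UMIs, and clustered them with Seurat (per the labels and the study's methods). The submitters' processing notes give Seurat 3.1.1, while the study's methods name a later version. The annotation version was not given in the sources used here. The deposited table held raw UMI counts of 32285 genes in 16690 barcodes, of which all 14373 annotated cells were used. Members, gene lists and tests were chosen with earlier results of these data known.

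UMIs were summed per library and cluster. The 3m and P3 sums were compared with edgeR 4.0.16 (R 4.3.3; TMM, filterByExpr, quasi-likelihood test, Benjamini-Hochberg adjustment) and, as an alternative, DESeq2 1.42.0. The interaction with astroglia used library as a block. Levels, shares and correlations were computed with Python 3.11.15. Several mice were pooled per library, and nothing in the labels ties mice to libraries, so p-values measure the spread between libraries. The fit was tested on simulated data. No doublet caller was run, and cells with 4 or more markers of another class were left out in an alternative. Genes were named from the lists, the 10 largest changes each way and the 15 leading genes. Genes named for likeness to Gkn3, Slc38a5 or Vtn were chosen after their values were seen. Coordinates are from GENCODE M21 (GRCm38) and promoters from RefSeq. Some genes of the lists are not reported here.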

Additional observations from a re-analysis of the deposited data

Results flagged for a closer look

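The change with age differed between endothelial cells and astroglia for 1193 of 6674 genes at 20 CPM or more in astroglia, by the interaction term of edgeR's quasi-likelihood test. Among genes of the lists, 15 had such a difference of at least 4 in size on the log2 scale. The immediate early genes fell in astroglia and differed towards the endothelium, with log2 differences of 7.20 for Fos, 11.88 for Fosb (which had no UMI in 3m astroglia, so that this value is no bound), 4.67 for Junb, 6.16 for Egr1, 7.79 for Nr4a1 and 4.48 for Btg2. The Krüppel-like factors Klf2 and Klf4 differed by 4.47 and 5.17. Ifitm3 differed by 4.09, Vcam1 by 5.03 and Alpl by 8.64, all towards the endothelium. Apln (-13.82, with 1 UMI in END_17), Mfsd2a (-4.91), Pfkp, a phosphofructokinase (-6.53), and Hopx (-4.08) differed the other way. These 15 differences kept their direction and call in all 9 alternatives of that fit.

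Outside the annotated cells, 8 of 1545 3m barcodes left out by the authors had a UMI in 3 or more pan-endothelial genes, and 5 of these 8 had 10% or more mitochondrial UMIs.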

How the results depend on the processing

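The 3m against P3 comparison gave 1192 genes higher and 1097 lower. Fewer genes could be tested, and fewer were called, in 3 alternatives: 596 and 391 with sums thinned to the smallest (4327 tested), 405 and 233 without cells with markers of another class (2543), and 523 and 344 with pericyte markers at most 1000 CPM (3213), the last chosen after seeing the data. Leaving out 1 replicate gave 899 to 1127 higher and 681 to 1185 lower, the lower counts of 707 and 681 being without P3 replicates 2 and 3. In the other alternatives both counts stayed within 1.5 times. No scaling beyond totals gave 1342 and 924, and 1749 and 551 for the interaction (955 and 959 with scaling). With the replicate number as a block 1205 genes were higher and 1114 lower. Same-numbered 3m and P3 libraries deviated together with r = 0.245, 0.0746 and 0.0592, and the numbers did not pair the samples, since not all were above 0.1 and 3m replicate 2 correlated better with P3 replicate 3 (r = 0.0944) than with its own number.

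The share of END_17 was 12.5% without oligodendrocytes, 14% with the stricter cell filter (28.0, 5 and 9.09% in 3m replicates 1, 2 and 3, and 7.05% on average without replicate 1) and 4.57 to 6.58% leaving out 1 replicate. Thinned to 1000 UMIs, Gkn3 was found in 16.0% and Slc38a5 in 11.0% of cells, and Slc38a5 in 0% of Gkn3 cells. Without thinning Slc38a5 was found in 35.6% of cells and in 14.3% of Gkn3 cells. Reversed log2(fold change) values were Fos at 1.11 without cells with markers of another class and 1.15 with little pericyte RNA, Vtn at -0.17 with little pericyte RNA, and Hba-a1 at -2.30, Hba-a2 at -2.06 and Hbb-bs at -5.37 without globin-rich cells. Vtn and the globin genes are among the genes by which cells were left out there. The cause of the reversals was not tested. Of 181 named genes tested, 19 lost a call in at least 1 alternative. Besides those given with their results, leaving out 1 library ended the calls of Igf1r and Itm2a (0.99 and 0.92 without 3m replicate 1), Agrn (-0.98 without 3m replicate 2, -0.99 without P3 replicate 1) and Slc40a1 (-0.95 without P3 replicate 3).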
